A study of Homo sapiens with 16 samples.

Results

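The long arm of chromosome 1 (1q) was taken here as every peak on chromosome 1 that starts at 142.60 Mb or later (hg19), a definition by position alone that uses no measured value. It holds 5459 of the 114213 peaks of 6 deposited lists. In the post-chemotherapy line TC-71 these were 811 of 18264 SMC1 peaks, 1124 of 26334 H3K27ac domains and 17 of 534 BORIS peaks. In the line TC-32, labelled as from diagnosis, they were 1732 of 32720 SMC1 peaks, 1774 of 36355 H3K27ac domains and 1 of 6 BORIS peaks. TC-71 and TC-32 are established lines of Ewing sarcoma, a tumour of bone and soft tissue, and per the labels both were grown in the same medium, with no treatment named. Chromatin immunoprecipitation was sequenced from 2 samples per line for each antibody and for input chromatin, 16 samples in all. The labels point both samples of a line and antibody to a single list, so no value below has a replicate error and no test between the lines was possible. Exact (Clopper-Pearson) 95% intervals are given with shares and cover counting error only, and read depth is unknown from peak lists. There is 1 line per phase of therapy, so differences between lines and differences between phases of therapy cannot be told apart. A peak list also cannot show whether the cells carry the markers of their line.

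SMC1 is a subunit of cohesin, the ring that holds sister chromatids together and extrudes chromatin loops that stop at bound CTCF. BORIS (CTCFL) is a germ-line paralog of CTCF that binds much of the same DNA motif and is switched on in some tumours, and H3K27ac marks active promoters and enhancers. Gain of 1q is a common secondary change in Ewing sarcoma, and the arm carries gene groups such as the replication-dependent histone genes at 1q21.2, the epidermal differentiation complex at 1q21.3 and the p53 inhibitor MDM4 at 1q32.1. Genes are named with their textbook band as background. Whether any peak overlaps them was not tested.

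Both cohesin and acetylation were listed at more places along 1q in TC-32 than in TC-71, and the gap was wider on 1q than over the lists as a whole. SMC1 peaks numbered 7.60 per Mb of 1q in TC-71 and 16.2 per Mb in TC-32. H3K27ac domains numbered 10.5 per Mb in TC-71 and 16.6 per Mb in TC-32. For SMC1 the TC-71 count was 0.468 times the TC-32 count on 1q, against 0.664 on the short arm and 0.558 over all arms. For H3K27ac it was 0.634 times on 1q, against 0.807 on the short arm and 0.724 over all arms. Among the 41 chromosome arms with at least 50 peaks, 1q had the 6th lowest SMC1 ratio and the 9th lowest H3K27ac ratio, so other arms went further in the same direction. In covered length, SMC1 peaks took up 159 kb of 1q in TC-71 and 487 kb in TC-32, and H3K27ac domains 1829 kb in TC-71 and 3606 kb in TC-32.

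Read as a share of its own list, 1q held 4.44% (interval 4.15 to 4.75%) of the SMC1 peaks of TC-71 and 5.29% (5.05 to 5.54%) of those of TC-32. These intervals do not overlap. No arm held a larger share of the TC-32 SMC1 list, while 1q was 3rd of 41 in the TC-71 list. For H3K27ac the shares were 4.27% (4.03 to 4.52%) in TC-71 and 4.88% (4.66 to 5.11%) in TC-32, 3rd of 41 arms in each line. A share of the list also depends on arm length. By peaks per Mb, 1q was 10th of 41 arms in TC-71 and 4th in TC-32 for SMC1. For H3K27ac it was 13th in TC-71 and 9th in TC-32. BORIS peaks of TC-71 on 1q made 3.18% (1.87 to 5.05%) of their list, and the short arm held 31 of them.

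Counts rose and fell together along the arm in both lines. The arm was divided at multiples of 5 Mb, which gives 22 windows of which 20 are full. In none of the full windows did TC-71 have more SMC1 peaks or more H3K27ac domains than TC-32 (0 of 20 for each antibody). The TC-32 lists are the longer ones, and lower TC-71 counts were usual elsewhere too. In 497 other windows with at least 20 TC-32 SMC1 peaks, the ratio of TC-71 to TC-32 counts had a median of 0.541, and 90% lay between 0.277 and 0.798. For H3K27ac the median was 0.714 in 479 other windows, and 90% lay between 0.354 and 1.20. The medians on 1q were 0.468 and 0.616. SMC1 counts per full window ran from 11 to 84 (median 36.5) in TC-71 and from 59 to 114 (median 81.5) in TC-32. H3K27ac counts ran from 17 to 97 (median 52) in TC-71 and from 48 to 133 (median 90) in TC-32. Across the 20 windows the counts of the lines were related with Pearson's r of 0.75 and Spearman's rho of 0.69 for SMC1, and 0.78 and 0.82 for H3K27ac. Between SMC1 and H3K27ac counts they were 0.54 and 0.54 in TC-71 and 0.62 and 0.58 in TC-32. These are descriptions over windows that share base composition, mappability and the libraries and depth of each list.

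SMC1 peaks were densest in the same 3 windows in both lines. TC-71 had most SMC1 peaks in the windows at 155 to 160 Mb (84, bands 1q22 to 1q23.2), 200 to 205 Mb (76, 1q32.1) and 150 to 155 Mb (65, 1q21.3). TC-32 had most there too, in the order 200 to 205 Mb (114), 150 to 155 Mb (113) and 155 to 160 Mb (108). H3K27ac domains of TC-71 were most numerous at 150 to 155 Mb (97), 145 to 150 Mb (91) and 155 to 160 Mb (81), around the histone genes, the epidermal differentiation complex and the lamin gene LMNA at 1q22. In TC-32 they were most numerous at 160 to 165 Mb (133), 150 to 155 Mb (119) and 230 to 235 Mb (109), so only 1 of the 3 leading windows was common to both lines.

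For SMC1 the sparsest windows were mostly different ones in each line, with 1 in common. TC-71 had fewest SMC1 peaks at 190 to 195 Mb (11), 185 to 190 Mb (13) and 215 to 220 Mb (14), while TC-32 had 61, 77 and 63 there. TC-32 had fewest at 235 to 240 Mb (59) and, tied, at 175 to 180 and 190 to 195 Mb (61 each), where TC-71 had 23, 33 and 11. H3K27ac was sparsest in TC-71 at 215 to 220 Mb (17), 175 to 180 Mb (22) and 205 to 210 Mb (25). In TC-32 it was sparsest at 175 to 180 Mb (48), 205 to 210 Mb (53) and, tied, 165 to 170 and 240 to 245 Mb (55 each). All 20 full windows of TC-32 lay above the genome-wide window median of 58 SMC1 peaks, and 13 of 20 in TC-71 lay above its median of 30.

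**Figure D1:**
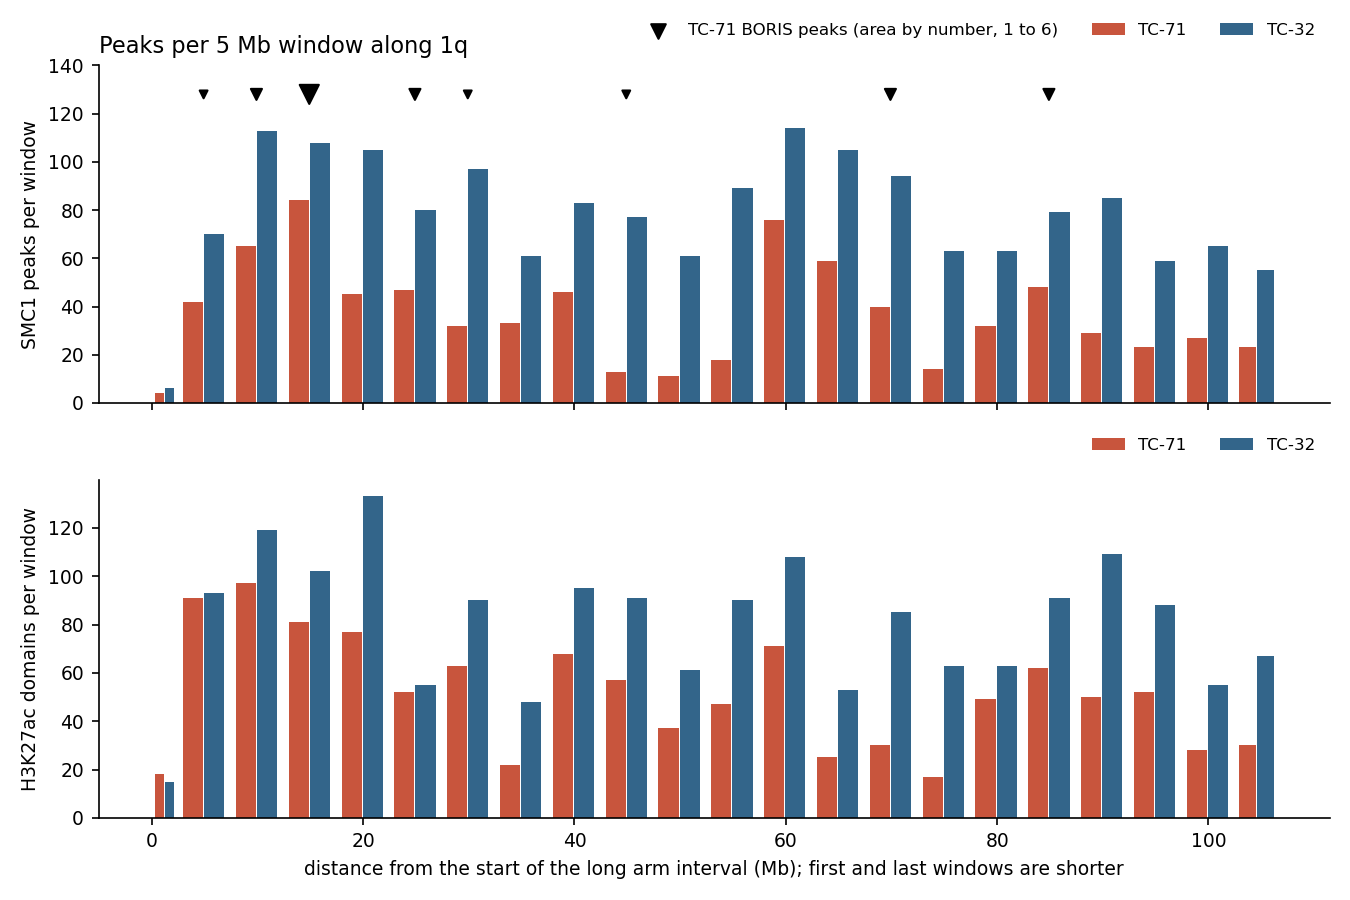
Number of SMC1 peaks (upper) and H3K27ac domains (lower) per 5 Mb window against distance from the start of the 1q interval in Mb, with TC-71 and TC-32 bars side by side and triangles for windows with TC-71 BORIS peaks. The TC-71 SMC1 bars drop to 13, 11 and 18 in the 3 windows between about 42 and 57 Mb along the axis, where the TC-32 bars stand at 77, 61 and 89.

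The peaks themselves record how much input background lay under them, and on 1q this background was high in TC-32 and ordinary in TC-71. MACS2 reports for each narrow peak a fold enrichment and a −log10 p that both follow from the pileup at the summit and the local background, which per the labels came from the input of the same line. Solving both formulas together gave the pileup and the background of 100% of SMC1 peaks to within 0.001 on the −log10 p scale. The median background at 1q SMC1 peaks was 4.35 in TC-71, equal to the list median, so 1.00 relative to it. In TC-32 it was 9.0 against a list median of 5.0, so 1.80 relative to it. No other of the 41 arms reached this value in TC-32: the next were 8p at 1.40 and 8q at 1.20, and the short arm of chromosome 1 was at 1.00. In TC-71 the highest arms were 8q at 1.49 and 17q at 1.29.

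The raised background ran along the whole of 1q in TC-32. Its 20 full windows, each with at least 20 peaks, lay between 1.20 and 2.20 times the list median, with a median of 1.80. The 497 windows of the same kind elsewhere had a median of 0.883, and 90% of them lay between 0.607 and 1.15. Only 13 of those 497 reached the lowest 1q window, and all 13 were on chromosome 8. In TC-71 the 16 full windows of 1q with at least 20 peaks lay between 0.800 and 1.20, against a median of 0.979 in 387 windows elsewhere. The windows from 185 to 200 Mb stood at 0.800, 0.514 and 0.600 in TC-71, each on under 20 peaks, with 215 to 220 Mb at 0.630. In TC-32 they were the lowest full windows, at 1.24, 1.20 and 1.20. The share of single 1q SMC1 peaks above 1.5 times the list median was 16.4% in TC-71 and 65.5% in TC-32, and over the rest of the lists it was 14.9% in TC-71 and 13.1% in TC-32. Copy number was not called here, and what raises the background was not tested.

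**Figure D2:**
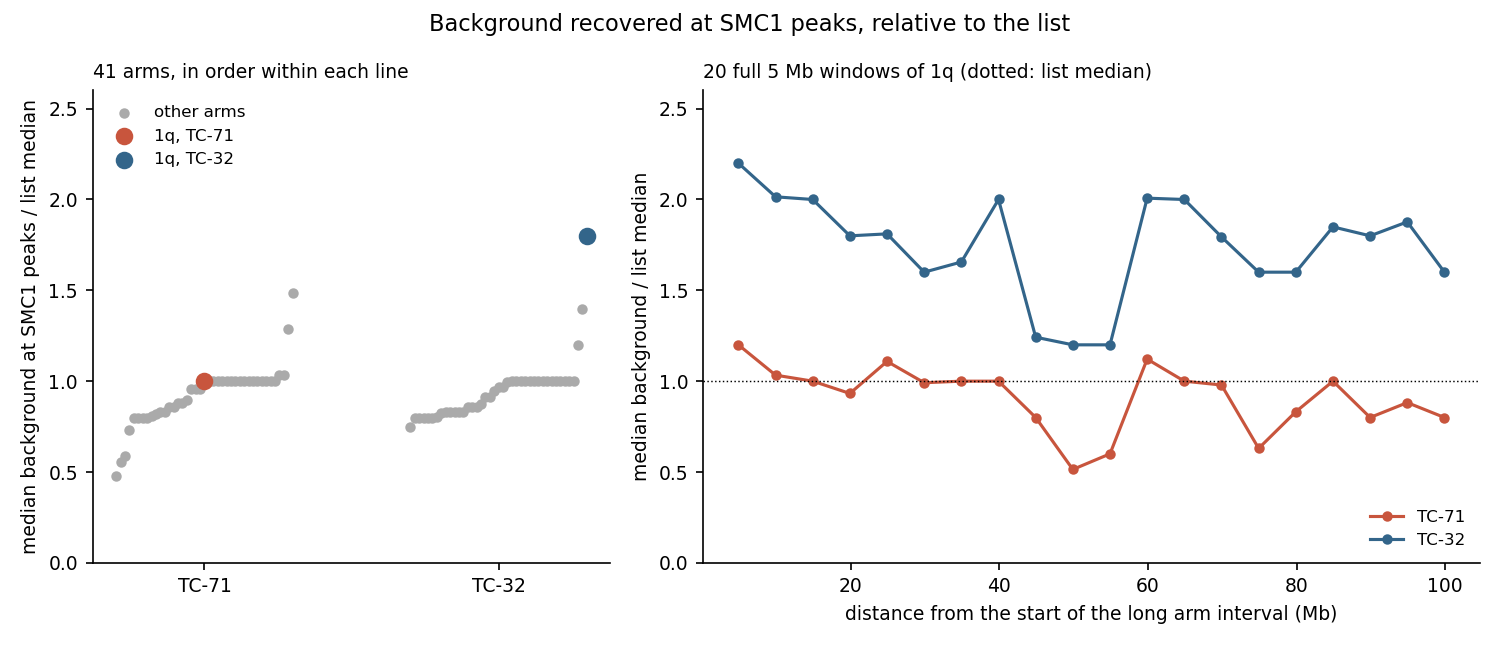
Median local background at SMC1 peaks divided by the median of the same list, for 41 chromosome arms in each line (left, arms in rising order) and for the 20 full 5 Mb windows of 1q against distance from the start of the interval in Mb (right). On the left 1q stands at 1.00 in TC-71 and at 1.80, above every other arm, in TC-32; on the right every TC-32 window lies above 1.

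SMC1 peaks of 1q in TC-32 had low folds and high significance for their list, which was not the case for 1q in TC-71. Their median fold enrichment was 5.74, against 6.56 in the rest of the TC-32 list, the lowest of 41 arms. Their median −log10 q was 21.6, against 17.1 in the rest, the 2nd highest of 41. In TC-71 the median fold on 1q was 6.25, against 6.16 in the rest, and the median −log10 q was 14.3, against 13.6. Fold, p and q values are the authors' own and were set against each other only within a list. The median pileup on 1q was 32 in TC-71, against 31 elsewhere, and 55.7 in TC-32, against 36.8 elsewhere. TC-32 peaks of 1q were also a little wider, with a median of 257 bp against 235 bp in the rest.

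At like folds the difference in significance was large in TC-32. Among SMC1 peaks with a fold of 6 to 8, the median −log10 q of TC-71 was 16.8 on 1q (223 peaks) and 15.9 elsewhere. That of TC-32 was 31.7 on 1q (304 peaks) and 18.1 elsewhere. H3K27ac domains showed the same order, although their averaged values do not allow the background to be recovered. Domains with a fold of 4 to 6 had a median −log10 q of 11.7 on 1q and 11.5 elsewhere in TC-71, and of 27.7 on 1q and 14.2 elsewhere in TC-32. Folds of 2 to 3 made up 14.8% of 1q domains in TC-71, against 13.1% of its other domains, and 48.9% of 1q domains in TC-32, against 24.6% of its other domains.

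Nearly every TC-71 cohesin site on 1q was also listed in TC-32. A TC-32 peak lay over 95.9% (94.3 to 97.2%) of the 811 TC-71 SMC1 peaks, the highest share of the 41 arms. The remaining 33 (4.07%) were in TC-71 alone, against 9.69% of all SMC1 peaks of that line. In the other direction, a TC-71 peak lay over 44.8% (42.4 to 47.2%) of the 1732 TC-32 SMC1 peaks, and 956 (55.2%) were in TC-32 alone, against 49.7% of the whole list. H3K27ac followed the same order. In TC-71, 323 of 1124 domains (28.7%) were listed in that line alone, against 32.7% of all its domains. In TC-32, 1012 of 1774 (57.0%) were, against 52.9% of all its domains.

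Line-only peaks were spread unevenly over the arm. By full window, the share of SMC1 peaks in that line alone ran from 0 to 13.8% in TC-71 and from 25.9 to 83.6% in TC-32, and it passed 50% in 11 of 20 windows of TC-32. With lists of equal length it did so in 4. For H3K27ac the share ran from 12.3 to 56.8% in TC-71, above 50% in 1 window, and from 31.2 to 82.5% in TC-32, above 50% in 15 windows. Over all arms 49.7% of TC-32 SMC1 peaks and 52.9% of TC-32 domains were in that line alone. Windows of other arms were not counted in this way, so the counts do not set 1q apart. In no window did the TC-71-only share of SMC1 reach the lowest TC-32-only share.

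The lower sharing of TC-32 cohesin sites on 1q depended on how peaks of equal strength were matched. By rank quartile of −log10 q within the list, sharing on 1q was below the rest of the TC-32 list throughout. It was 86.6% (83.6 to 89.3%) on 1q against 91.8% elsewhere in the highest quartile and 47.6% (42.6 to 52.6%) against 66.2% in the second. In the next it was 16.7% (13 to 20.9%) against 34.5%, and in the lowest 3.75% (2.07 to 6.22%) against 11.1%. Matched by fold enrichment within folds of 4 to 12, 1q was level with the rest or slightly above it, with overlapping intervals. Peaks with a fold below 4 or above 12 were not matched in this way. TC-32 peaks with a fold of 4 to 6 were shared in 30.02% (26.0 to 34.3%) of cases on 1q and 29.0% elsewhere, those of 6 to 8 in 59.2% (53.5 to 64.8%) and 53.3%, and those of 8 to 12 in 76.6% (71.7 to 81.0%) and 74.1%.

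The TC-71 list behaved alike under either match. Its 1q peaks in the lowest quartile of −log10 q were shared in 91.8% (87.0 to 95.2%) of cases, against 78.6% (77.4 to 79.8%) elsewhere. Those with a fold of 4 to 6 were shared in 93.2% (89.8 to 95.8%), against 85.4% (84.5 to 86.2%) elsewhere. The strongest TC-71 peaks left little room for a difference, with 98.6% shared on 1q and 98.5% elsewhere in the highest quartile.

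Asking for a fold of at least 5 in both SMC1 lists, an alternative chosen after seeing the data, brought the 1q shares of both lists level. The median fold of 1q in TC-32 was the lowest of 41 arms, so such a cut takes more of its peaks by construction. No other single arm was counted at this fold. It left 579 TC-71 peaks on 1q, 4.41% of the list, and 1013 TC-32 peaks, 4.43% of the list. The ratio of TC-71 to TC-32 counts on 1q, divided by the same ratio over all arms, was then 0.994, against 0.839 with every listed peak. It was 0.841 with a −log10 q of at least 5 and 0.760 with lists of equal length. Shared peaks made 49.7% of the TC-32 peaks on 1q and 49.2% of all TC-32 peaks at this fold. In a further alternative of the same kind, the pileup and background of every TC-32 SMC1 peak on 1q were divided by 1.80 and the peak was scored again. That kept 1591 of 1732 peaks at the lowest −log10 p of the list, and the 776 shared peaks were all among them. The 141 peaks that dropped out were therefore all listed in TC-32 alone. Re-scoring takes peaks of low significance, and 96.2% of the 1q peaks in the lowest quartile of −log10 q were TC-32-only to begin with. The 1591 peaks kept are 14.9 per Mb. No other arm was re-scored, so the part that the background has in this density was not tested.

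**Figure D3:**
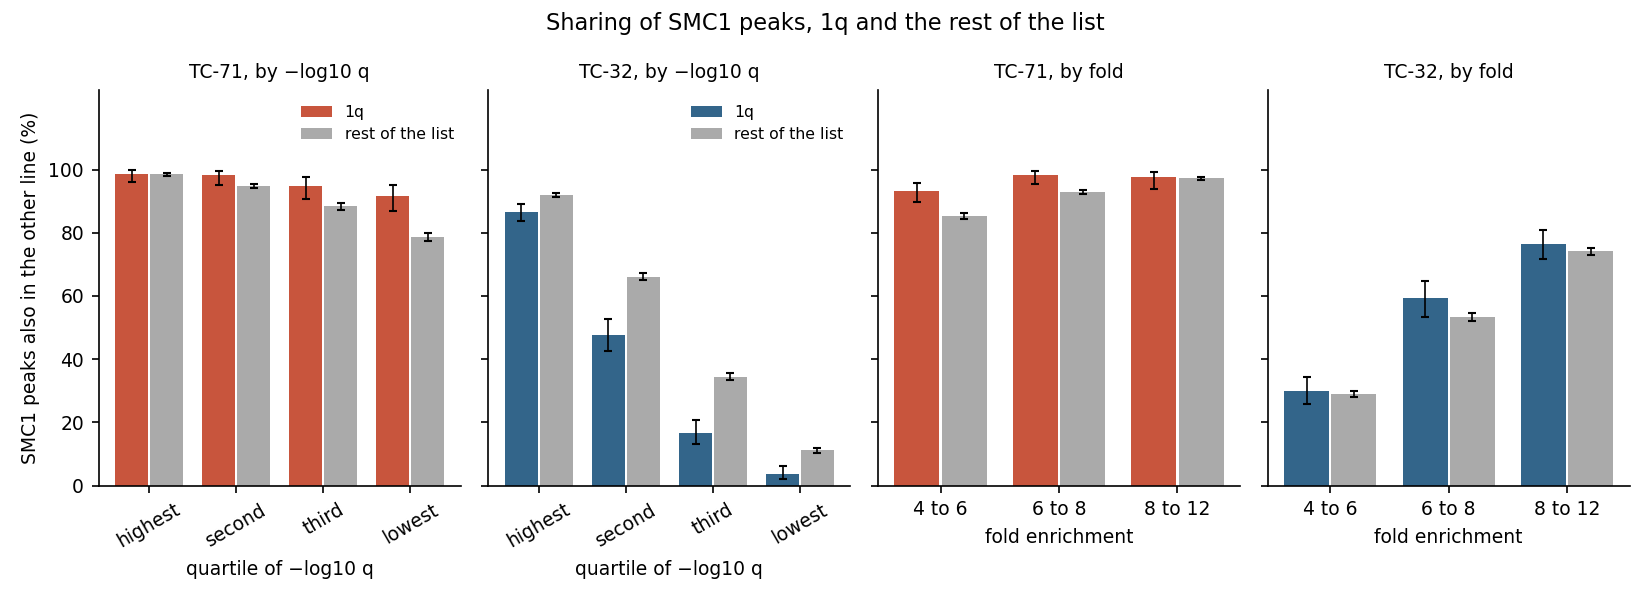
Percentage of SMC1 peaks that overlap a peak of the other line, on 1q (coloured) and in the rest of the list (grey), by quartile of −log10 q (left pair) and by fold enrichment (right pair), TC-71 left of TC-32 in each pair; bars carry exact 95% intervals. In TC-32 the 1q bars lie below the grey ones in every quartile of −log10 q, at 47.6% against 66.2% in the second. At like fold between 4 and 12 they are level with or above the grey ones, at 59.2% against 53.3% for folds of 6 to 8.

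The cohesin peaks listed in TC-71 alone were few and scattered. The 33 of them on 1q had a median −log10 q of 8.88, against 14.5 for the shared 1q peaks of TC-71, and no pair of them was adjacent in the joint order of sites. The highest-ranked was at 1q42.2 (chromosome 1, 231227771 to 231227983; fold 9.82, rank 3054 of 18264). Next came 1q21.2 (147196134 to 147196382; fold 8.41) and 1q44 (247134732 to 247134962; fold 7.40). None of the 10 highest-ranked lay in an H3K27ac domain of either line (0 of 10). A TC-71 domain held 15.2% of all 33 and 17.0% of the 1769 TC-71-only peaks over all arms, so few were to be found among 10.

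The cohesin peaks listed in TC-32 alone included some of the strongest of that line on 1q. At 1q25.2 a peak (chromosome 1, 178969355 to 178969709) had a fold of 16.4 and rank 313 of 32720, with the nearest TC-71 peak 2.15 kb away. At 1q31.3 a peak (197884936 to 197885285) had a fold of 13.8 and rank 520. At 1q41 a pair lay at 219157241 to 219157672 (fold 13.5) and at 219477611 to 219477914 (fold 15.2), the second inside a TC-32 H3K27ac domain. Among the 10 highest-ranked, the distance to the nearest TC-71 peak ran from this 2.15 kb to 432 kb at 1q43 (240618573 to 240618910; fold 14.2). A TC-32 H3K27ac domain held 2 of these 10, against 44.7% of all 956 TC-32-only peaks of the arm, and no TC-71 domain held any.

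A pair at 1q32.1 led the acetylated domains that TC-71 alone had, in the same band as MDM4 and the antiproliferative gene BTG2. They lay at chromosome 1, 201232670 to 201239934 (fold 6.83, rank 2429 of 26334) and 201249688 to 201256776 (fold 6.25). Both belong to the longest run of TC-71-only domains on 1q, 10 in a row over 118 kb (201213269 to 201331432) with no TC-32 domain between them. That stretch held 3 SMC1 peaks in TC-71 and 3 in TC-32, so cohesin was listed there in both lines. Further TC-71-only runs were 9 domains at 1q42.2 (234250907 to 234506623) and 6 at 1q31.2 (192126961 to 192283614).

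Ranks follow −log10 q, which at domain folds of 4 to 6 had a median of 27.7 on 1q and 14.2 elsewhere in TC-32. In TC-71 these medians were 11.7 and 11.5. With that limit, the leading acetylated domains of TC-32 alone ranked higher within their list than those of TC-71 alone did in theirs. The first was at 1q22 (chromosome 1, 155828562 to 155831564; fold 5.83, rank 423 of 36355), only 0.931 kb from a TC-71 domain. The second was at 1q32.3 (214149107 to 214164854; fold 6.08), 15748 bp wide, with the nearest TC-71 domain 289 kb away and a TC-32 SMC1 peak inside. Another at 1q41 (218544031 to 218568500; fold 4.69) spanned 24470 bp, in the band of TGFB2, a ligand of the TGF-beta pathway. Of the 10 highest-ranked, 5 held a TC-32 SMC1 peak, against 16.4% of all 1012 TC-32-only domains of the arm and 12.6% of those over all arms. These 5 were 2955 to 24470 bp wide and the others 1161 to 3432 bp, against a median of 1401 bp for TC-32 domains on 1q. A wider domain has more room for a peak, and the shares were not matched by width. None of the 10 held an SMC1 peak of TC-71, and the share of all TC-32-only domains that do was not computed.

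Runs of sites listed in TC-32 alone were longer than those of TC-71, on 1q as over the whole genome. Where sites of both lines are put in order along the arm, the longest run of TC-71-only SMC1 sites on 1q was 1 site, and the longest of TC-32-only sites was 29. Over the genome the longest SMC1 runs were 6 sites in TC-71 and 33 in TC-32. With lists of equal length the longest TC-71 run on 1q was 3 sites and the longest TC-32 run 11. The run of 29 reached from 1q31.1, the band of the prostaglandin synthase gene PTGS2, into 1q31.2 (chromosome 1, 188947168 to 191976794) and was the 3rd longest of 7446 TC-32 runs in the genome. The 4th longest followed, from the end of 1q31.2 through much of 1q31.3, with 28 sites (193724304 to 196278827). A run of 16 lay at 1q24.2 over 305 kb (170429713 to 170735159), in the band of PRRX1, a homeobox gene of limb and skeletal mesenchyme. At 1q24.2, 15 of the 16 peaks lay in a TC-32 H3K27ac domain and the stretch held 17 such domains, while TC-71 had 6 domains there. In the run of 29 only 9 peaks did, and in the run of 28 only 7.

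By its definition, a run of TC-32-only sites lies within a stretch that has no TC-71 cohesin peak. The stretches around the long 1q31 runs were the longest such gaps of the arm. One such gap was 3070 kb (188907622 to 191977683) and held 0 SMC1 peaks of TC-71 and 31 of TC-32. The other was 2911 kb (193376204 to 196287134) and held 0 of TC-71 and 30 of TC-32. Acetylation was not missing from these gaps in TC-71, with 6 domains in each, against 14 and 16 in TC-32. The longest TC-32 SMC1 gap on the arm was 808 kb, at 1q21.1 (145713929 to 146521431), and also held no TC-71 peak. Most TC-32 peaks in the first run were weak for their list, with a median fold of 4.39 and 17 of 29 in the lowest quartile of −log10 q, but 3 were in the highest quartile and the highest fold was 15.5. In the second run the median fold was 4.82, with 9 of 28 in the lowest quartile and 1 in the highest.

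Over the 3 windows from 185 to 200 Mb together, TC-71 had 42 SMC1 peaks and TC-32 had 227, of which 81.9% were in TC-32 alone. H3K27ac domains there numbered 141 in TC-71 and 242 in TC-32, of which 64.9% were in TC-32 alone. Over all arms, 49.7% of TC-32 SMC1 peaks and 52.9% of TC-32 domains were in that line alone. In the other direction the order was reversed. Of the TC-71 peaks in the stretch, 2.38% for SMC1 and 37.6% for H3K27ac were in TC-71 alone. Which antibody differed more thus depends on the direction, and the stretch includes the windows with the fewest TC-71 SMC1 peaks. The bands 1q31.1 and 1q31.3 are gene-poor and belong, with 1q41, to the darkest Giemsa class of the arm, and the background was low for 1q in both lines, as given above. The part that the background has in these gaps was not tested.

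**Figure D4:**
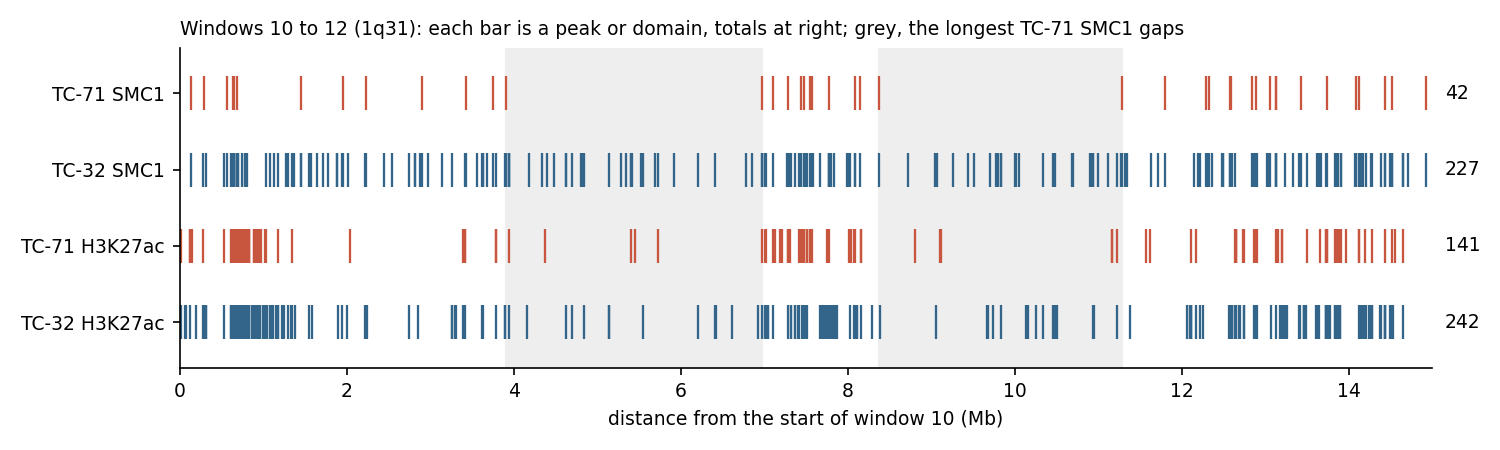
Each bar is an SMC1 peak or H3K27ac domain in the 3 windows around 1q31, placed by distance from the start of the first of them in Mb, with TC-71 above TC-32 for each antibody and the number per row at the right. The 2 grey stretches hold 0 TC-71 SMC1 peaks and 31 and 30 TC-32 SMC1 peaks.

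Gaps in acetylation lay elsewhere. The longest stretch of 1q without an H3K27ac domain was 3032 kb at 1q43 in TC-71 (238649269 to 241681163) and held 14 TC-32 domains, in the band of the ryanodine receptor gene RYR2 and the muscarinic receptor gene CHRM3. In TC-32 the longest was 1390 kb, also at 1q43 (238134401 to 239524413), with 1 TC-71 domain inside. The median distance between neighbouring domains was 23.4 kb in TC-71 and 15.6 kb in TC-32, and between neighbouring SMC1 peaks 62.2 kb in TC-71 and 32.2 kb in TC-32.

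Cohesin and acetylation met more often on 1q in TC-32 than elsewhere in that line, and at the usual rate in TC-71. In TC-71, 110 of 811 SMC1 peaks on 1q (13.6%, 11.3 to 16.1%) lay in an H3K27ac domain of the line, against 13.6% of the whole list. In TC-32, 559 of 1732 did (32.3%, 30.1 to 34.5%), against 25.9% of the whole list. The peaks listed in TC-32 alone carried most of this, with 44.7% (41.5 to 47.9%) on 1q against 36.5% over all arms, while shared peaks were at 17.0% (14.4 to 19.8%) on 1q and 15.4% over all arms. Seen from the domains, 9.52% of those on 1q held cohesin in TC-71 and 26.0% did in TC-32, against 8.84% and 19.1% over all arms. The part that the raised background of the TC-32 arm has in these shares was not tested. With lists of equal length the share of TC-32 SMC1 peaks on 1q in a domain was 19.4%, and with a −log10 q of at least 5 it was 25.2%. The share over all arms was not computed under either setting, so these values have no counterpart to the 25.9% above.

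Neighbouring domains were stitched within 12.5 kb into clusters and ranked by summed length times fold, as is done for super-enhancers. Of the top clusters, 27 of 670 lay on 1q in TC-71 (4.03%, 2.67 to 5.81%) and 49 of 901 in TC-32 (5.44%, 4.05 to 7.13%), and these intervals overlap. Stitching within 5 kb gave 42 top clusters on 1q in TC-71 and 55 in TC-32. On 1q, 18 of the 27 TC-71 clusters were also top clusters in TC-32, and 17 of the 49 TC-32 clusters were in TC-71. These are 66.7% and 34.7%, against 53.9% and 39.3% of all top clusters of those lines. A cluster can match more than 1 of the other line. At least 1 SMC1 peak of the line lay in 14 of the 27 TC-71 clusters (51.9%) and in 48 of the 49 TC-32 clusters (98.0%), against 57.2% and 84.5% of all top clusters of those lines. The median span of top clusters was 25.4 kb on 1q and 25.7 kb over all in TC-71, and 35.5 and 29.8 kb in TC-32. TC-32 SMC1 peaks were also dense on 1q, at 16.2 per Mb. The shares were not matched for span or density.

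The cluster ranked highest in TC-71 on this arm was common to both lines. It lay at 1q25.3 (chromosome 1, 185614411 to 185721783), ranked 8 in TC-71 and 32 in TC-32, and 54.4 kb of it was acetylated in TC-71 and 54.3 kb in TC-32. It held 3 SMC1 peaks in TC-71, and the TC-32 cluster at nearly the same bounds held 12. Also shared were 1q21.1 (144975290 to 145144741), ranked 25 in TC-71 and 795 in TC-32, and 1q43 (236814274 to 236890777), ranked 31 in TC-71 and 104 in TC-32. A further TC-71 cluster at 1q32.1 (201209720 to 201269858, rank 79) includes the run described above and was no top cluster in TC-32, where 1.21 kb of it was acetylated against 24.9 kb in TC-71.

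TC-32 had strongly ranked clusters on 1q that were not top clusters in TC-71. At 1q42.13 (chromosome 1, 230202188 to 230379750, rank 25), 8.55 kb was acetylated in TC-71 and 88.2 kb in TC-32. This cluster holds a run of 23 TC-32-only domains over 93.5 kb (230209095 to 230302635), all of low fold, between 2.02 and 3.23, with 1 TC-32 SMC1 peak among them. At 1q23.3 (164526779 to 164698254, rank 38), 9.47 kb was acetylated in TC-71 and 78.1 kb in TC-32, and the run of 28 TC-32-only domains there (164574605 to 165042612) was the 7th longest of 7790 in the genome. At 1q41 (218509961 to 218585655, rank 57), in the band of TGFB2, 1.35 kb was acetylated in TC-71 and 50.3 kb in TC-32, with 9 SMC1 peaks in TC-32.

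Some clusters had no domain at all in the other line, 1 of 27 for TC-71 and 7 of 49 for TC-32, against 24 of 670 and 83 of 901 of all top clusters of those lines. For TC-71 it was at 1q24.3 (chromosome 1, 171187425 to 171201640, rank 634). The highest of TC-32 were at 1q32.3 (214149107 to 214177408, rank 173), 1q41 (214611417 to 214643241, rank 421) and 1q23.3 (164721914 to 164760741, rank 469). The last lies just beyond the 1q23.3 cluster above.

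BORIS was sparse on 1q, and its TC-71 sites gathered in the proximal part of the arm. Of the 17 TC-71 sites, 6 were in the window from 155 to 160 Mb, and 5 of these lay within 601 kb at 1q22 and 1q23.1. The windows at 150 to 155, 165 to 170, 210 to 215 and 225 to 230 Mb held 2 each, those at 145 to 150, 170 to 175 and 185 to 190 Mb 1 each, and none lay beyond 230 Mb. The folds ran from 3.33 to 8.62 with a median of 5.40. Only 1 of the 17 ranked in the highest quartile of the TC-71 list.

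Most of these sites carried cohesin. SMC1 of TC-71 was listed at 11 of 17 (64.7%, 38.3 to 85.8%; 64.0% of all 534 sites) and SMC1 of TC-32 at 14 (82.4%, 56.6 to 96.2%; 74.0% of all). H3K27ac of TC-71 was listed at 9 (52.9%, 27.8 to 77.0%; 56.7% of all) and of TC-32 at 7 (41.2%, 18.4 to 67.1%; 56.6% of all). With 17 sites these intervals are wide and each holds the share of the whole list. At the 11 sites with SMC1 in TC-71, the BORIS and SMC1 summits were 4 to 56 bp apart, with a median of 16 bp, although overlap of such short peaks alone keeps summits close.

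Of the 5 leading BORIS sites of TC-71 on 1q, 3 had cohesin in TC-32 but not in TC-71. The highest-ranked was at 1q23.2 (chromosome 1, 159915504 to 159915685; fold 8.62, rank 64 of 534). It was acetylated in both lines and had a TC-32 SMC1 summit 9 bp away, while the nearest TC-71 SMC1 peak was 8989 bp away. The second, at 1q31.1 (186344571 to 186344818; fold 7.07), and the fifth, at 1q42.13 (228353366 to 228353520; fold 5.22), in the band of WNT3A and WNT9A, were of the same kind, with TC-32 SMC1 summits 10 and 12 bp away. These 3 were the only sites with SMC1 in TC-32 alone, and all 3 were acetylated in both lines. This grouping was made after the values were seen.

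The other sites, some of them named because their values were seen, were mixed. At 1q23.1 the site that ranked next on the arm (156594265 to 156594378; fold 7.78) met no SMC1 peak and no H3K27ac domain in TC-71 or TC-32, and neither did the one at 1q22 (156435656 to 156435745; fold 5.71). A neighbour at 1q23.1 (156629892 to 156630038; fold 6.86) had SMC1 in both lines without acetylation. Sites at 1q21.2 (148598814 to 148598906; fold 5.73) and 1q32.3 (212208553 to 212208689; fold 5.40), the second in the band of the stress-response gene ATF3, had SMC1 and H3K27ac in both lines. At 1q21.3 (150952057 to 150952179; fold 5.51) SMC1 was in both lines and H3K27ac in TC-71 alone.

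The single TC-32 BORIS peak of the arm was at 1q21.2 (chromosome 1, 147994230 to 147994329). It had a fold of 6.07 and ranked 5 of 6 in its list. It lay at a TC-32 SMC1 peak, with summits 33 bp apart, and in a TC-32 H3K27ac domain, and in no TC-71 list. The nearest TC-71 SMC1 peak was 5993 bp away and the nearest TC-71 H3K27ac domain 5740 bp away.

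At the end of the arm, an interval of 1q44 from 247.61 to 248.87 Mb held peaks almost only in TC-32. The interval was chosen as a run of TC-32 peaks in these same lists and begins and ends at TC-32 domains, so the lack of TC-71 domains inside it, and their presence on its flanks, are a description of the choice. Background for this stretch is that 1q44 carries a large cluster of olfactory receptor genes, which encode odorant receptors of the nasal epithelium and are mostly silent elsewhere. In RefSeq on GRCh38.p14, used for gene order only, the cluster runs from OR2B11 to OR14I1 and counts 45 protein-coding genes, of which 43 are olfactory receptors and the others are GCSAML and TRIM58. The inflammasome gene NLRP3 precedes it, and LYPD8 and SH3BP5L follow it. SMC1 was listed there 1 time in TC-71 and 15 times in TC-32, and 14 of the TC-32 peaks were in that line alone. It held 0 H3K27ac domains in TC-71 and 27 in TC-32, and no BORIS peak in either line. Counts of 0.794 SMC1 peaks per Mb in TC-71 and 11.9 per Mb in TC-32 compare with 7.60 and 16.2 per Mb over 1q.

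The flanks of the interval were populated in both lines. The 1 Mb before it held 10 SMC1 peaks in TC-71 and 18 in TC-32, and 14 H3K27ac domains in TC-71 and 21 in TC-32. Over the 0.381 Mb after it, up to the chromosome end, TC-71 had 4 SMC1 peaks and 6 domains and TC-32 had 6 peaks and 9 domains. The 27 domains belong to a run of 31 TC-32-only H3K27ac domains over 1600 kb (chromosome 1, 247505597 to 249105960), the longest of 7790 such runs in the genome. That run also held 4 SMC1 peaks of TC-71 and 20 of TC-32, so cohesin was not absent from it in TC-71.

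Peaks within the interval ranged from weak to strong. The TC-71 SMC1 peak (248406529 to 248406654) had a fold of 3.27 and ranked 17195 of 18264. The TC-32 peak over it (248406458 to 248406783) had a fold of 8.42 and ranked 4032 of 32720. The strongest TC-32 SMC1 peak of the interval (248020586 to 248021253; fold 15.9, rank 564) lay inside the highest-ranked H3K27ac domain (248019752 to 248022706; fold 5.99, rank 1744 of 36355). Others were at 248782236 to 248782550 (fold 11.01) and 248785823 to 248786170 (fold 7.32), and further domains at 248862490 to 248865921 (fold 6.19) and 248286506 to 248292714 (fold 6.11). Of the 15 TC-32 SMC1 peaks, 5 were in the highest quartile of the list, against 34.1% of all those on 1q. A TC-32 domain held 8 of the 15, against 32.3% of all on 1q and 44.7% of the TC-32-only ones. The interval is bounded by TC-32 domains and was chosen as a run of TC-32 peaks, so this count depends on the choice. Of the 27 domains, 7 were in the highest quartile, against 28.4% of TC-32 domains on 1q. Their median fold was 3.13, against 3.03 on 1q. The median background at the TC-32 SMC1 peaks of the interval was 1.80 times the list median, the value of the whole arm, so the interval did not stand apart from 1q in this respect.

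**Figure D5:**
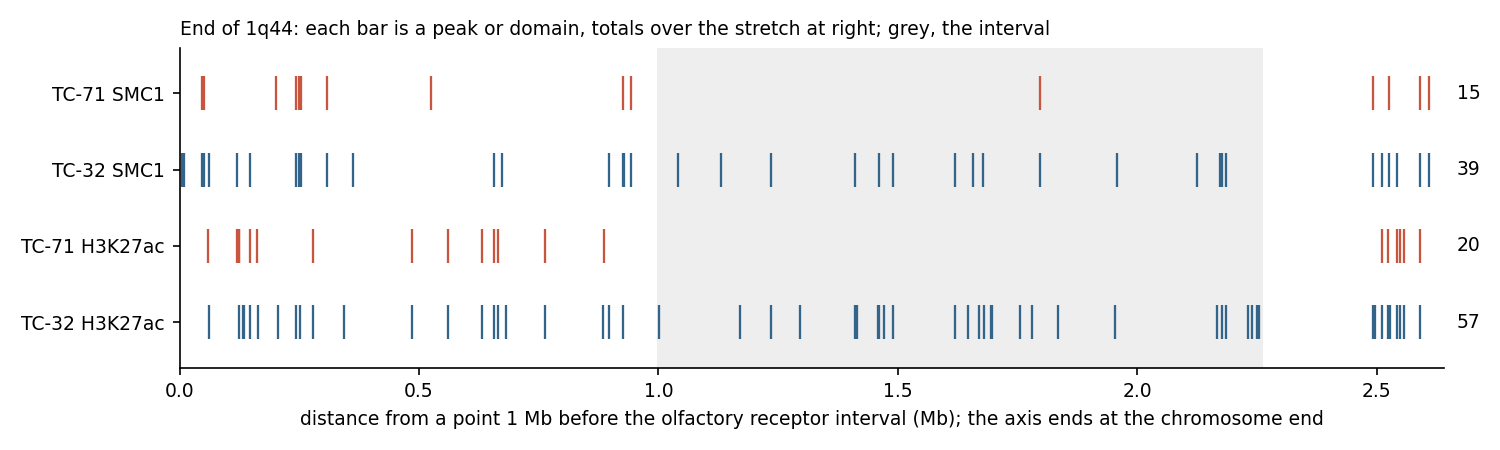
Each bar is an SMC1 peak or H3K27ac domain near the end of 1q, placed by distance in Mb from a point 1 Mb before the olfactory receptor interval (grey), with TC-71 above TC-32 for each antibody and the number over the stretch at the right. Inside the grey interval TC-71 has 1 SMC1 peak and 0 domains while TC-32 has 15 peaks and 27 domains, and both lines have bars on either side.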

How the data were processed

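Per the labels' protocols, crosslinked and sonicated chromatin was immunoprecipitated with antibodies against BORIS, SMC1 or H3K27ac. The submitters' processing notes list, with no roles, MACS2 2.1.1, STAR 2.5.1b, deepTools 2.2.4, Picard and SAMtools 1.3.1, with the build hg19. Settings and how samples were combined are not stated in the sources used here. The authors deposited narrow peaks with a summit offset (BORIS, SMC1) and broad domains (H3K27ac). Each deposited peak has a score (the −log10 q on another scale), −log10 p and q values and a fold enrichment over input. A higher background under a peak lowers its fold and, at equal fold, raises its −log10 p.

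Intervals listed with several summits were counted once, with the values of the highest −log10 q. Keeping chromosomes 1 to 22 and X left out 30 intervals. Overlap meant at least 1 bp. Top clusters are those past a slope of 1 on the scaled curve of rank against signal. Alternatives tried were equal list lengths, 50% coverage, merging within 1 kb, windows shifted by 2.5 Mb, 5 kb stitching, ranking by covered length, an arm start at the short arm's end and a stricter −log10 q of 5; others are named as chosen after seeing the data. Bands came from circlize 0.4.16 and lengths from GenomeInfoDb 1.38.1 (R 4.3.3). Pileup and background were recovered from fold and −log10 p, with a second solution for 0.251% of TC-32 SMC1 peaks. Figures were drawn with matplotlib 3.10.9 and values computed with scipy 1.17.1, pandas 2.3.3 and numpy 2.4.6 under Python 3.11.15, and overlap, runs and recovery were tested on simulated data. The members and lists were chosen with earlier results of these data known. Named regions follow one rule: every TC-32 BORIS peak, the 10 highest-ranked TC-71 BORIS peaks, the 10 highest line-only peaks per line and antibody, the 3 fullest and emptiest windows, the 3 longest runs and gaps, the 5 highest clusters with 3 lacking a domain in the other line, and the 5 highest 1q44 peaks per list; the text gives a part of each. No gene was assigned to a peak, because the gene table used here is of another build. No sequence is printed for the same reason.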

Additional observations from a re-analysis of the deposited data

How the results depend on the processing

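No paired analysis was possible because both samples of a group share 1 list, so no sample could be left out either. Of 100 values under alternatives, 63 kept within the main value's interval or, for counts, a factor of 1.5, and 37 moved beyond it; the fold, re-scoring and background settings and the stricter gaps were chosen after seeing the data. Where no cause is named below, it was not tested. A −log10 q of at least 5 gave shared H3K27ac shares of 85.1% (TC-71) and 49.0% (TC-32). H3K27ac at SMC1 peaks was then 9.33% for all and 9.43% for shared peaks of TC-71, and 25.2% for all, 13% for shared and 36.0% for line-only peaks of TC-32. The longest runs were 2 sites (TC-71 SMC1) and 19 (TC-32 H3K27ac), and the longest TC-32 H3K27ac gap was 2095 kb. Lists of equal length, which remove the lowest-ranked TC-32 peaks by construction, gave an SMC1 ratio on 1q of 0.760 relative to all arms. Shared shares were then 89.2% (TC-71) and 67.6% (TC-32) for SMC1 and 66.1% and 53.1% for H3K27ac. H3K27ac at TC-32 SMC1 peaks was 19.4% for all and 26.9% for line-only peaks. The longest SMC1 runs were 3 sites in TC-71 and 11 in TC-32, and 4 full windows instead of 11 had over 50% of their SMC1 peaks in TC-32 alone. Asking for 50% coverage gave shared shares of 36.3% for SMC1 of TC-32, 65.0% for H3K27ac of TC-71 and 32.5% for H3K27ac of TC-32, and H3K27ac at SMC1 peaks was 11.1% for all and 10.9% for shared peaks of TC-71 and 29.4% and 12.9% in TC-32. Stitching within 5 kb gave 42 TC-71 top clusters on 1q. An SMC1 fold of at least 5 gave 4.43% of the TC-32 list, a relative ratio of 0.994 and shared shares of 87.2% (TC-71) and 49.7% (TC-32). Re-scoring gave 4.88% of the TC-32 list and 48.8% shared. The relative background was 1.03 as a mean and 1.018 outside H3K27ac domains in TC-71, and 2.0 at shared peaks in TC-32. Unknown depth and 1 list per line limit every comparison between lines.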
